A study of Mus musculus with 7 samples.

Results

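Coarse cluster 12 was a population of 1373 uterine cells, 1.28% of the 107443 cells in the annotation, and most of its cells carried a G2M call and more RNA than the cells around them. Its members were chosen by the authors' Louvain cluster number at their coarsest resolution (0.2), which was computed from the genes expressed in the same cells. Every difference between these cells and the others is therefore a description without a test. The study profiled single cells of the mouse uterus from control mice and from mice labelled Kdm6b cKO, where cKO commonly stands for conditional knockout, along gestation. Kdm6b encodes a histone demethylase that removes repressive methyl marks from histone H3. Inter-implantation tissue, taken between the implantation sites, was sampled at gestation days 5 (5.5 in the protocol), 8, 12, 14, 16 and 18, with 1 specimen per genotype and day. Implantation-site myometrium/endometrium was sampled with 3 specimens per genotype at day 12, 1 at day 14, 1 at day 16 and 2 at day 18. One further inter-implantation specimen per genotype came from non-pregnant mice that had received 0.2 mg progesterone a day for 3 days. Each non-pregnant and each day 5 replicate pooled the uteri of 2 mice. The sources used here do not give the age or strain of the mice, nor what drives deletion of Kdm6b in the cKO.

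Dividing cells copy their DNA in S phase and then pass through G2 into mitosis (M). Genes for DNA replication rise in S phase, and genes for spindle assembly, chromosome condensation and mitotic kinases rise in G2 and M, so that scores over both gene sets place a cell in the cycle. A cell also gains RNA and protein as it grows towards division. In the pregnant mouse uterus, stromal, epithelial, smooth muscle and blood vessel cells divide at different stages of gestation.

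The 28 specimens (14 per genotype) held 1769 to 5720 cells each, in 7 pools and 3 experimental batches. Inter-implantation specimens of days 12 to 18 were in batch 2 and the earlier ones and the non-pregnant ones in batch 3, while implantation-site specimens were spread over batches 1 to 3. Batch 1 held implantation-site specimens alone, and 23.0% to 35.8% of the cells in each of them had under 500 genes, against 2.65% to 13.3% in the specimens of batches 2 and 3. Pools of batch 1 had the lowest shares of coarse cluster 12 (0.306% and 0.421%), those of batch 2 had 1.23% to 1.31%, and those of batch 3 had 2.29% and 2.34%. Of the 106098 distinct cell barcodes, 1336 occurred in more than 1 pool, and 43 members carried such a barcode. The values of single genes were not analysed here, so no marker gene was read, the level of Kdm6b was not checked, and the cluster is called by its number.

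Phase calls and RNA content of the members both stood above those of the other cells. Members had a median of 16447 UMIs (unique molecular identifiers, each standing for 1 captured RNA molecule) with an interquartile range of 11734 to 22045, against 5977.5 in the other 106070 cells. They had a median of 3795 genes per cell, against 1966. A G2M call was carried by 1095 members (79.8%), an S call by 209 (15.2%) and a G1 call by 69 (5.03%). Outside the cluster 12.7% of cells had a G2M call, 9.65% an S call and 77.7% a G1 call.

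Among the 19 coarse clusters, cluster 12 had the highest share of G2M calls and the third highest median of UMIs, behind clusters 18 (37771 UMIs, 67 cells) and 11 (16846 UMIs, 2027 cells). In cluster 11, 1.33% of cells had a G2M call. The clusters next to it in G2M calls were cluster 14 with 36.5% and cluster 4 with 31.0%, and both were poor in RNA, with medians of 3550 and 546 UMIs. The calls in cluster 4 rested on scores close to 0, since its highest G2M score was 0.228. In cluster 12 the median G2M score was 1.21, and 55.2% of members exceeded 1, against 2.23% of the other cells. Members made up 24.3% of the 3118 cells past that score but only 7.53% of all G2M calls. The scores were not scaled to depth here. The median S score was -0.0135 in cluster 4, -0.991 in cluster 11 and -14.4 in cluster 18. The part of depth in the contrast of scores was not tested.

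**Figure D1:**
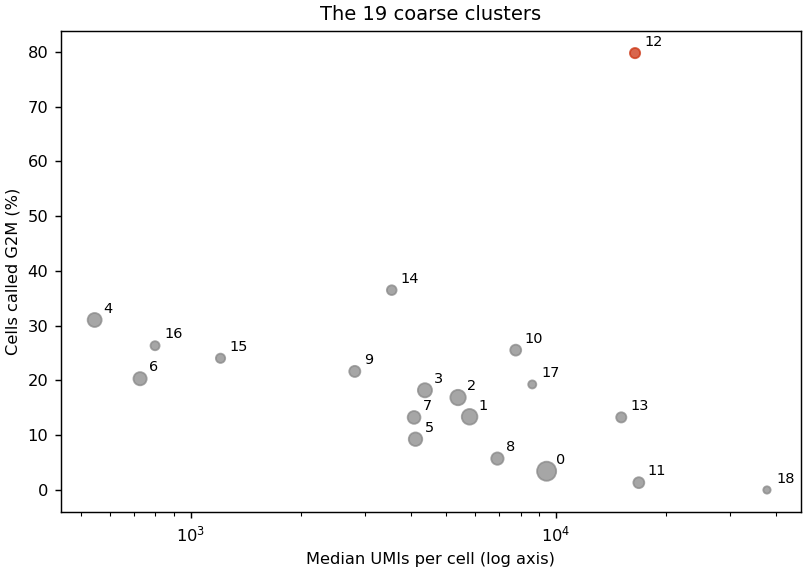
Each point is 1 of the 19 coarse clusters, placed by its median UMIs per cell on a log axis and by the percent of its cells with a G2M call, and its area grows with its number of cells. Cluster 12 stands alone at 16447 UMIs and 79.8% G2M calls, while clusters 14 and 4, the next by G2M calls, had 3550 and 546 UMIs.

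Cells of like depth showed the same contrast. In the range of 10000 to 20000 UMIs, 76.2% of 652 members had a G2M call, against 6.95% of 23746 other cells. The next highest coarse cluster in this range was cluster 10, with 26.5% of 510 cells. Members of this range had a median of 3631.5 genes and the other cells 3122.5, although cluster 10 reached 3775. Depth was not equal within the range, with medians of 15398.5 UMIs in members, 13247 in the other cells and 13634 in cluster 10. With all specimens and depths pooled, members had a lower percent of mitochondrial UMIs (median 1.99% against 2.64%). Their pooled percent of ribosomal protein UMIs was higher (26.0% against 21.6%), but this order did not hold within most specimens. Over the 28 specimens, the median of the specimen medians was 21.6% in members and 24.4% in the other cells. Members were higher in the cKO specimen of inter-implantation day 8 (38.8% against 33.8%). They were lower in the control specimen of inter-implantation day 16 (21.6% against 24.8%). The hashing UMIs of members, which count the oligonucleotide tags on the cell surface, had a median of 535 against 548. A droplet that catches 2 cells also gives many UMIs, and the sources used here do not say how such doublets were treated before deposit. Their part in the cluster was not tested.

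At the finest resolution analysed (2, with 61 clusters), coarse cluster 12 divided into fine cluster 39 with 711 members and fine cluster 40 with 662. No other fine cluster held a member. Only 2 cells of fine cluster 39 and 32 of fine cluster 40 lay outside coarse cluster 12. At resolutions of 0.4 to 1, a single cluster held between 1367 and 1373 of the members, and the division into 711 and 662 cells appeared at the next resolution and stayed at every higher one. The cells of fine cluster 40 outside coarse cluster 12 also had G2M calls in 30 of 32 cells, with a median of 22042.5 UMIs.

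The fine clusters lay at different points of the cycle scores. Fine cluster 39 held 207 of the 209 S calls, which made up 29.1% of its cells, beside 468 G2M calls (65.8%) and 36 G1 calls. Fine cluster 40 held 627 G2M calls (94.7%), 33 G1 calls and 2 S calls (0.302%). The median S score was 0.169 in fine cluster 39 and -0.54 in fine cluster 40, and the median G2M score was 0.785 and 2.03. Fine cluster 39 was thus the part with S calls and lower G2M scores, and fine cluster 40 the part with high G2M scores and almost no S call. The phase call of a cell followed from the 2 scores alone: a cell with both below 0 was G1, and otherwise the higher score gave the call, which held for 107443 of 107443 cells.

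RNA content differed less between the fine clusters than phase did. Fine cluster 39 had a median of 17407 UMIs (interquartile range 13323.5 to 22238) and 3885 genes. Fine cluster 40 had 15114 UMIs (9795.5 to 21889.2) and 3602 genes. Within fine cluster 39, cells with a G2M call had 17884 UMIs, those with an S call 16719 and those with a G1 call 15879. Within fine cluster 40, cells with a G2M call had 15399 UMIs and those with a G1 call 12005. Cells called G2M thus had the highest median in each fine cluster, and fine cluster 40 stayed below fine cluster 39 for the same call. Ribosomal protein UMIs made up 27.6% in fine cluster 39 and 24.4% in fine cluster 40. All these values pool cells over the specimens, whose member medians ran from 6337 to 21385 UMIs. The fine clusters were not compared within specimens.

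**Figure D2:**
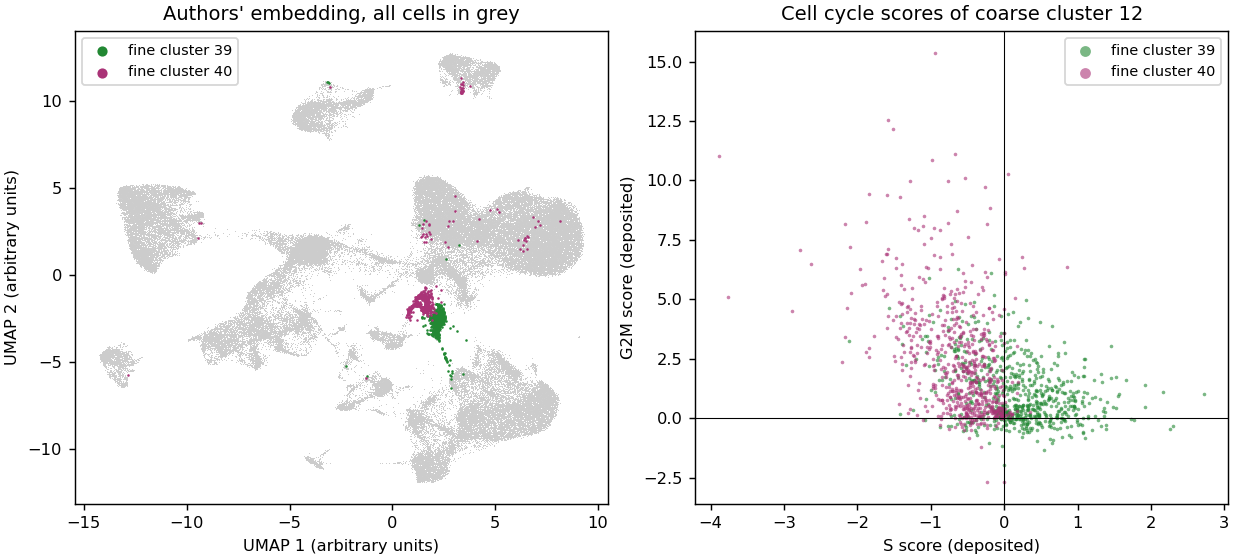
Members of fine clusters 39 and 40 are drawn over all other cells in the authors' UMAP embedding (axes without unit) and by their S score and G2M score (no unit), 1 point per cell. Fine cluster 40 reaches higher G2M scores (median 2.03 against 0.785) at lower S scores (median -0.54 against 0.169), and 78 of the 1373 members lie apart from the main group, above 0 on the second UMAP axis.

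In the embedding most members formed 1 group, and 78 of them (70 of fine cluster 40 and 8 of fine cluster 39) lay above 0 on the second axis, away from it. In the space of the first 5 principal components, the nearest cell outside the cluster belonged to coarse cluster 0 for 70.8% of members, to cluster 13 for 8.89% and to cluster 6 for 5.24%. Coarse cluster 0 itself holds 31.0% of all cells. Coarse cluster 0 was also rich in RNA (median 9422 UMIs), but only 3.42% of its cells had a G2M call. Nearness to a cluster describes the position in the space used, and says nothing of the cell type of the members.

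Specimens differed widely in how many members they held. The share ran from 0.0581% of cells in the control specimen of inter-implantation day 5 to 5.44% in the cKO specimen of inter-implantation day 8, with a median of 0.622% over the 28 specimens. These and the shares that follow are percents of the specimen's own cells, with exact (Clopper-Pearson) 95% intervals that cover counting error only, and each also depends on how many other cells were recovered. Of the members, 854 came from cKO and 519 from control specimens. The cKO specimens of inter-implantation days 8 and 12 together held 388 members (28.3%).

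Non-pregnant tissue was among the richest in these cells. The control specimen had 154 members, a share of 4.05% (95% interval 3.44 to 4.72), and the cKO specimen had 98, a share of 2.35% (1.91 to 2.85). The control specimen was higher and the intervals did not overlap, with a ratio of cKO to control of 0.58 (0.446 to 0.752). The difference came with fine cluster 40, which took 2.42% of the cells in the control and 0.742% in the cKO specimen, while fine cluster 39 took 1.63% and 1.60%. With 1 specimen per genotype, this difference has no replicate check.

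The low point of the study was the control inter-implantation specimen of day 5. It had 2 members among 3440 cells, a share of 0.0581% (0.00704 to 0.21), with 1 of them in each of its pools. Both carried a G2M call and lay in fine cluster 40, and their median was 6337 UMIs, against 3907 in the other cells of the specimen. Fine cluster 39 had 0 of 3440 cells, which allows a share of up to about 0.0872%. This limit is the approximate one of 3 cells in the specimen's total, not an exact interval. A G2M call was carried by 15.5% of the other cells there, the highest value among inter-implantation specimens. Those other cells also had the lowest median of UMIs among these specimens. Calls in cells poor in RNA can rest on scores close to 0, as in cluster 4. The value thus does not show how many cells were dividing, and the part of depth in it was not tested.

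The cKO specimen of day 5 was also low, with 10 members and a share of 0.302% (0.145 to 0.555). The ratio of cKO to control at day 5 was 5.20, with a counting interval of 1.11 to 48.8. In both genotypes day 5 thus lay below the non-pregnant specimen of the same batch, and no interval of day 5 overlapped one of the non-pregnant specimens. Day 5 and non-pregnant specimens differed in progesterone treatment as well as in pregnancy.

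From day 8 to day 14 the share was higher in the cKO specimens of inter-implantation tissue. At day 8 the cKO specimen had 226 members (5.44%, 4.77 to 6.17) and the control specimen 22 (0.59%, 0.370 to 0.893), a ratio of 9.21 (5.93 to 15.0). At day 12 the cKO specimen had 162 members (4.20%, 3.59 to 4.88) and the control specimen 18 (1.02%, 0.604 to 1.60), a ratio of 4.13 (2.53 to 7.14). At day 14 the shares were 1.36% (1.04 to 1.74) in the cKO and 0.34% (0.186 to 0.570) in the control specimen, a ratio of 3.99 (2.21 to 7.73). On these 3 days the cKO specimen was higher and the intervals of the genotypes did not overlap. With 1 specimen per genotype and day, these differences have no replicate check. Other coarse clusters differed between the same specimens too. At day 14 cluster 13 had 166 of 4566 cKO cells and 6 of 4118 control cells. Cluster 2 had 832 and 216, and cluster 5 had 626 and 130. Others were higher in the control specimen, with 1388 and 1823 in cluster 0 and 97 and 245 in cluster 8. At day 8 cluster 1 had 179 of 4157 cKO cells and 90 of 3726 control cells. A gap between the genotypes was thus not particular to cluster 12. Intervals were not computed for other clusters in any specimen, so how common such gaps are among clusters was not tested.

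Late in gestation the shares came closer. At day 16 the cKO specimen had 0.752% (0.508 to 1.07) and the control specimen 1.07% (0.787 to 1.42), and the intervals overlapped. At day 18 the cKO specimen had 8 members (0.427%, 0.185 to 0.840) and the control specimen 7 (0.148%, 0.0596 to 0.305), with overlapping intervals again. The cKO share was thus higher on 5 of 6 days of pregnancy and lower at day 16. From day 8 to day 18 each later cKO specimen had a lower share than the one before. Control specimens of the same days lay between 0.148% and 1.07%, without such an order. All 7 members of the control specimen of day 18 lay in fine cluster 39. Fine cluster 40 had 0 of 4726 cells, which allows a share of up to about 0.0635% by the same approximate limit of 3 cells.

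**Figure D3:**
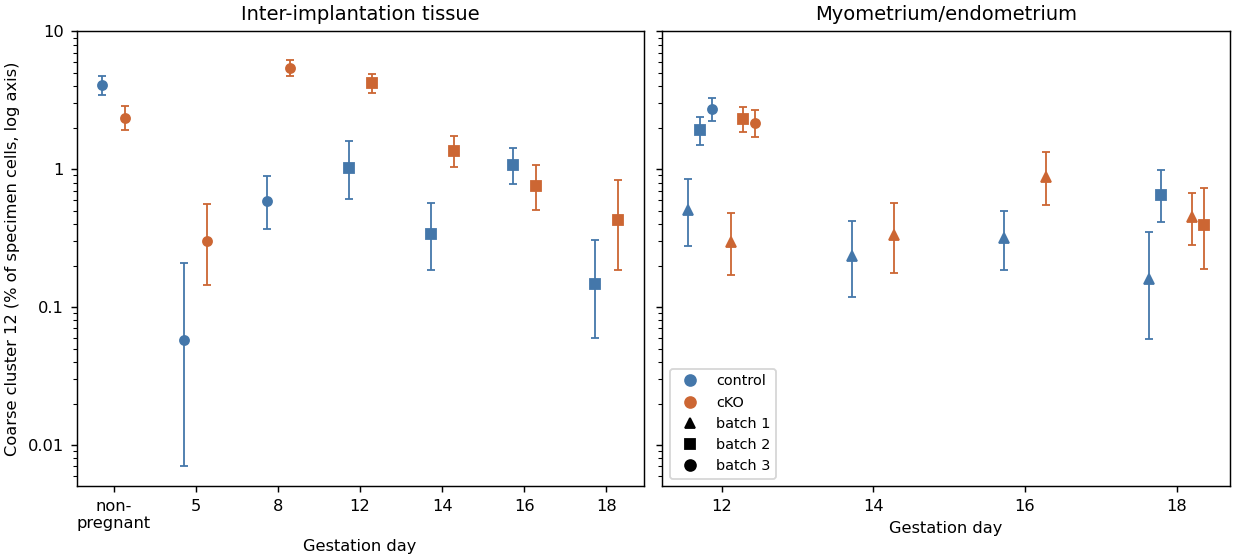
The share of coarse cluster 12 in each of the 28 specimens (percent of the specimen's cells, log axis) is plotted by gestation day for inter-implantation (left, days and non-pregnant mice evenly spaced) and implantation-site tissue (right, myometrium/endometrium), with colour for genotype, symbol for batch and bars for the exact 95% interval. Inter-implantation cKO specimens peak at day 8 (5.44%) and the control specimen of day 5 is the lowest (0.0581%), while implantation-site specimens of batch 1 lie below those of the other batches at day 12.

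At the implantation site the shares differed between batches. At day 12 the cKO specimens had 0.298%, 2.30% and 2.15% in batches 1, 2 and 3, and the control specimens had 0.508%, 1.91% and 2.74%. The genotypes overlapped, and the 2 specimens of batch 1 were the lowest. At day 14, sampled in batch 1, the cKO specimen had 0.334% and the control specimen 0.236%, with 13 and 11 members. At day 16, also in batch 1, the cKO specimen had 0.882% (0.554 to 1.33) and the control specimen 0.315% (0.187 to 0.497), which was the only pair at this site whose intervals did not overlap.

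At day 18 the cKO specimens had 0.446% in batch 1 and 0.395% in batch 2, and the control specimens 0.161% and 0.654%. The cKO specimen was higher in batch 1 and lower in batch 2, so the genotypes overlapped. Over all days the implantation-site mean was 0.397% ± 0.224 (SD, n = 8) in batch 1, 1.31% ± 0.932 (SD, n = 4) in batch 2 and 2.45% ± 0.415 (SD, n = 2) in batch 3. Batch 3 held day 12 alone at this site, and batch 1 all specimens of days 14 and 16.

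Over both sites the genotype difference in the share did not pass the test. The mean was 1.48% ± 1.65 in cKO and 0.750% ± 0.784 in control specimens (SD, n = 13 each), and the cKO specimen was higher in 9 of 13 pairs of the same site, day and batch. The quasi-likelihood test of edgeR on cells per cluster, with site and day as covariates, gave a log2 difference of 0.88 ± 0.44 (SE) with an adjusted p of 0.336 (unadjusted 0.0593). It called 0 of 17 coarse clusters (0% at an adjusted p under 0.05), with 2 at an unadjusted p under 0.05, and DESeq2 called none either, with 4 at an unadjusted p under 0.05. An exact permutation test of the log2 shares within strata gave a difference of 0.96 and a two-sided p of 0.0538. With the batch-matched pair as a replicate block, edgeR gave 0.90 with an adjusted p of 0.0783. The exact permutation within these pairs gave a two-sided p of 0.0234, which is not adjusted for the other clusters.

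Within inter-implantation tissue alone the share was higher in cKO specimens, at 2.08% ± 2.19 against 0.537% ± 0.433 (SD, n = 6 each). The cKO values ran from 0.302% over a median of 1.06% to 5.44%, and the control values from 0.0581% over 0.465% to 1.07%, so the ranges overlapped. The fit of this site alone, reported as a result of its own after the data had been seen, gave a log2 difference of 1.76 ± 0.60 (SE) with an adjusted p of 0.0237 by edgeR, where 16.7% of 18 coarse clusters were called. The call was lost with TMM factors (adjusted p = 0.0552) and whenever a specimen of day 5, 8, 12, 14 or 18 was left out (log2 differences of 1.41 to 1.81, adjusted p up to 0.167). Among the fits that left out a specimen it held without either specimen of day 16, where the log2 difference was up to 2.24. It also held with DESeq2 (1.61, adjusted p = 0.0325), with no filter on low counts (1.76, adjusted p = 0.0245) and with cells of at least 500 genes (1.753, adjusted p = 0.0153) by edgeR. Batch 2 alone (days 12 to 18) gave 1.26 ± 0.76 (SE) with an adjusted p of 0.301 by edgeR. Batch 3 alone (days 5 and 8, 2 specimens per genotype and 1 residual degree of freedom) gave 3.10 ± 0.43 (SE) with an adjusted p of 4.96e-05, and the difference between the batches was not tested. An exact permutation test of the log2 shares over the 6 days gave a two-sided p of 0.0625, where 0.03125 was the smallest possible.

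RNA content of the remaining cells moved with genotype on some of these days. At day 12 the other cells of the cKO specimen had a median of 9545 UMIs and those of the control specimen 4723, at day 8 they had 6657 and 5445, and at day 5 they had 5574 and 3907. At day 16 the order turned, with 6798 in the cKO and 9277 in the control specimen, and so did the order of the shares. At day 18 the control specimen had more UMIs (9035 against 6111) and the lower share. The part of depth in the genotype difference was not tested.

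At the implantation site alone the means were 0.973% ± 0.879 in cKO and 0.932% ± 0.995 in control specimens (SD, n = 7 each). The log2 difference was 0.23 ± 0.54 (SE) with an adjusted p of 0.939 by edgeR, which called 0 of 17 coarse clusters here and found 0 at an unadjusted p under 0.05, and a two-sided exact permutation test gave a p of 0.646. The genotype differences of the sites were compared by their interaction, which was -1.55 ± 0.81 (SE) for the implantation site minus inter-implantation tissue, with an adjusted p of 0.530. One of the 17 clusters (5.88%) was called for this interaction, and it was not cluster 12. A different effect of genotype at the 2 sites was thus not shown for this cluster.

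With both sites together, both fine clusters had higher mean shares in cKO than in control specimens, without passing the test. Over both sites fine cluster 39 took 0.758% ± 0.948 of cells in cKO and 0.399% ± 0.446 in control specimens, and fine cluster 40 took 0.725% ± 0.709 and 0.350% ± 0.350 (SD, n = 13 each). The log2 difference was 0.78 ± 0.48 (SE) for fine cluster 39 (adjusted p = 0.424) and 1.10 ± 0.50 (SE) for fine cluster 40 (adjusted p = 0.302) by edgeR over 51 fine clusters, of which 1.96% were called. In inter-implantation tissue alone the differences were 1.63 (adjusted p = 0.184) and 2.14 (adjusted p = 0.0591), with 4.17% of 48 fine clusters called. The clusters were not tested against each other.

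The sites did not differ in the share beyond the spread of their specimens at days 12 to 18. Inter-implantation specimens had a mean of 1.16% ± 1.29 (SD, n = 8) and implantation-site specimens 0.952% ± 0.903 (SD, n = 14). With day and genotype as covariates, the log2 difference of inter-implantation minus implantation-site tissue was 0.49 ± 0.47 (SE) with an adjusted p of 0.356 by edgeR, where 23.5% of 17 clusters were called. It turned to -0.35 with batch as a covariate and to -0.43 within batch 2, the only batch with both sites at these days.

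Along gestation the share tended lower at the implantation site, short of the threshold. The slope was -0.33 ± 0.11 (SE) on the log2 scale per day, with an adjusted p of 0.0670 by edgeR, where 11.8% of 17 clusters were called. With batch as a covariate it was -0.17 (adjusted p = 0.159), and within batch 1 it was -0.02. In batch 2, sampled at days 12 and 18 at this site, the shares were 2.30% (cKO) and 1.91% (control) at day 12 and 0.395% and 0.654% at day 18, so both day 18 specimens lay below both day 12 specimens. The batches thus differed in their course, and this difference was not tested. In inter-implantation tissue the slope was -0.05 ± 0.12 (SE) with an adjusted p of 0.850, beside 44.4% of 18 clusters called. A straight line does not describe a course that was low at day 5 and highest at day 8 or later: the slope was -0.26 (adjusted p = 0.0791) without day 5. Day and batch were also confounded at this site, with days 5 and 8 in batch 3 and days 12 to 18 in batch 2. By edgeR the slope was -0.16 (adjusted p = 0.569) with batch as a covariate and -0.42 (adjusted p = 0.0984) in batch 2 alone.

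The split into fine clusters varied among specimens. In the 24 specimens with at least 10 members, fine cluster 39 took from 27.3% (control, implantation-site day 14) over a median of 45.8% to 68.4% (cKO, non-pregnant). In non-pregnant tissue the control specimen had 40.3% in fine cluster 39 and 4.55% S calls, and the cKO specimen 68.4% and 21.4%. At day 8 the cKO specimen, with the most members, had 58.4% in fine cluster 39 and the control specimen 63.6%. Members of the 2 day 18 implantation-site cKO specimens were G2M calls in 23 of 23 and 10 of 10 cells.

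RNA content set the members apart in each specimen. The median UMIs of members exceeded that of the other cells in 28 of 28 specimens, by a ratio of 1.62 to 4.38 with a median of 2.48, and the percent of G2M calls was also higher in 28 of 28. Among specimens with at least 10 members the median ran from 9289 to 20942.5 UMIs, with 9289 to 15383 in batch 1 and 12192.5 to 20942.5 in batch 2. Members held 10.0% of all UMIs in the cKO specimen of inter-implantation day 8 and 34.3% of its G2M calls. In the control specimen of day 5 they held 0.0530% and 0.373%, and in the non-pregnant control specimen 6.47% and 28.8%.

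**Figure D4:**
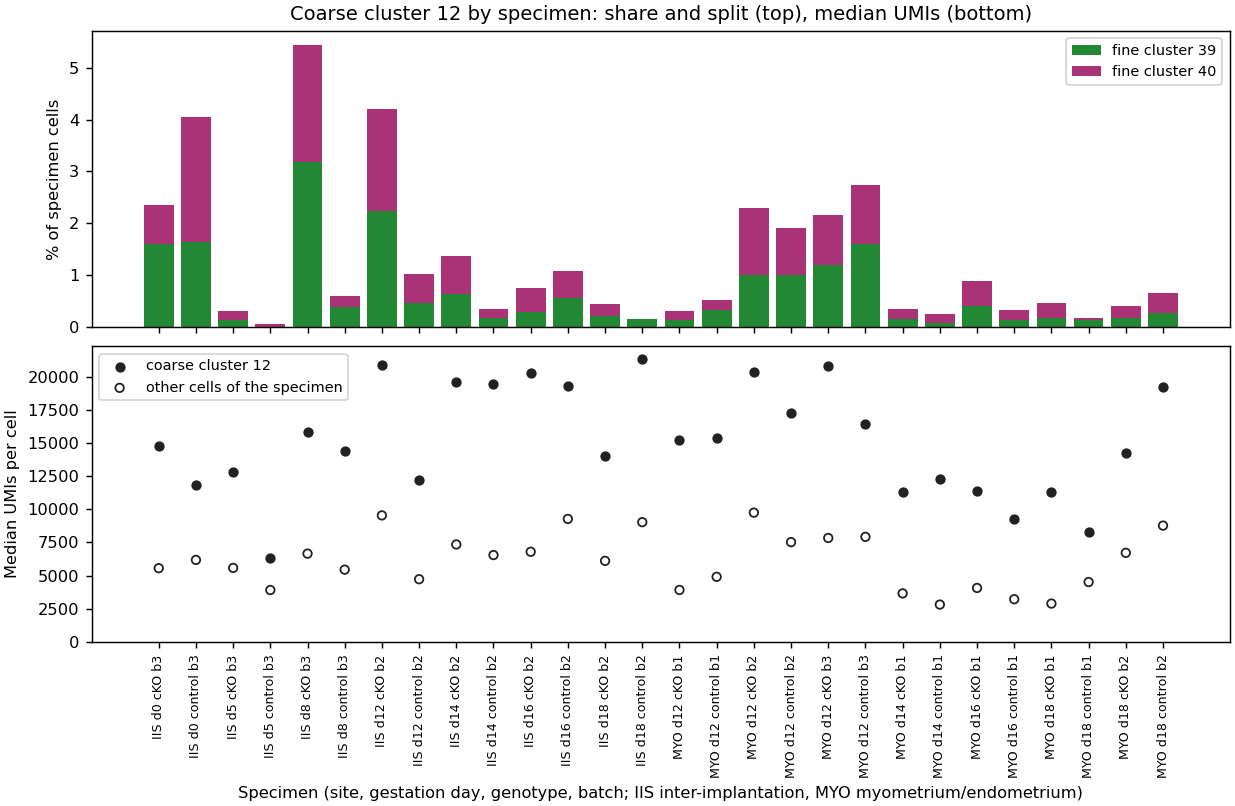
For each of the 28 specimens (d0 is non-pregnant, b1 to b3 the batch), the upper bars stack the percent of its cells in fine clusters 39 and 40, and the lower points give the median UMIs per cell of the members (filled) and of the other cells (open), without error bars. The filled point lies above the open one in 28 of 28 specimens, and the bar is tallest for the cKO specimen of inter-implantation day 8 (5.44%).

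No cell measure of the members passed the test between genotypes. Over strata with both genotypes and at least 10 members per specimen, the mean of the specimen medians was 16497 ± 4050 UMIs in cKO (SD, n = 11) and 15530 ± 3484 in control specimens (SD, n = 10). The exact two-sided permutation test within strata gave a p of 0.418 (adjusted 0.648 over 7 measures). Median genes were 3706 ± 453 and 3651 ± 379 (SD). The percent of G2M calls was 83.1% ± 9.05 in cKO and 78.6% ± 9.37 in control specimens (exact permutation p = 0.359, adjusted 0.648). The lowest p was that of S calls, with 11.6% ± 6.86 against 17.96% ± 10.6 (exact permutation p = 0.0854, adjusted 0.598), and cKO specimens were lower in 5 of 8 strata. The percent in fine cluster 39 was 46.2% ± 6.83 and 48.9% ± 11.8 (SD).

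Between the sites no measure passed either. At days 12 to 18 members of 6 inter-implantation specimens had 4478 more median UMIs than those of 10 implantation-site specimens within strata of day and genotype (exact two-sided permutation p = 0.0781, adjusted 0.273). The difference turned to -2157 UMIs without batch 1. The percent of ribosomal protein UMIs was 6.42 points higher in inter-implantation tissue, in 6 of 6 strata (exact permutation p = 0.0234, adjusted 0.164), and 1.65 points higher without batch 1. Over members, this percent had a median of 13.7% in batch 1, of 24.0% and 21.9% at the 2 sites in batch 2, and of 40.2% in inter-implantation and 21.2% in implantation-site tissue of batch 3. The other cells of the same specimens ran from 13.5% to 16.6% in batch 1 and from 24.7% to 35.9% in batch 3.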

How the data were processed

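The values are the authors' annotation of each cell from droplet 3' libraries of minced, frozen and enzymatically digested uterus, hashed by specimen with lipid-conjugated oligonucleotides. The submitters' processing notes name Cell Ranger, Seurat and mouse build mm10, without versions or settings. Per the file headers, UMI counts, gene counts and hashing UMI counts per cell were deposited without normalization. The percent of UMIs from mitochondrial and ribosomal protein genes, the S and G2M score and the phase call of each cell, the embedding, the principal components and Louvain clusters at 9 resolutions were also deposited by the authors. Cell filters, doublet removal and the assignment to specimens were theirs, and doublets were not called again. Depth could not be equalised without gene values.

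The members, the clusters named and the tests were chosen with earlier results of these data known. Named are coarse cluster 12 and each fine cluster with at least 1 percent of its cells. So are the 2 coarse clusters nearest in G2M calls (14 and 4). Clusters 0, 1, 2, 5, 6, 8, 10, 11, 13 and 18 were named after their values were seen. A specimen is the authors' hashing name within a batch, with its pools added together. Specimens, not cells, were the replicates, and p-values measure the spread between specimens. No label ties specimens to single mice, so specimens of the 2 sites may share mice. At implantation-site day 12, batch 3 repeats replicate names of batch 1. Whether these specimens share mice is not stated, and they were counted as separate. Cells per cluster and specimen were tested with edgeR 4.0.16 (R 4.3.3), the quasi-likelihood F test, with total cells as library size and clusters of at least 10 cells on average, Benjamini-Hochberg adjustment over all clusters tested and a threshold of 0.05. Standard errors were taken as the size of the log2 value over the root of F. Specimens at strata of 1 per genotype take their spread from the whole fit. In the fit of inter-implantation tissue alone, that spread is how the genotype difference varied between days, not between replicates of the same day. Medians per specimen (at least 10 members) were compared by exact permutation within strata. Alternatives were DESeq2 1.42.0, TMM factors, no filter, cells of at least 500 genes, other resolutions, single sites or batches, and each specimen left out. The tests were checked on simulated data with known differences. These held no batch effect, so the check does not cover the spread between batches. Batch pairs the specimens in part. At implantation-site day 12, deviations of cKO and control specimens over 17 clusters correlated at 0.947, 0.569 and 0.906 within batches 1, 2 and 3. Across batches the correlations ran from -0.851 to 0.456, the highest for cKO of batch 2 with control of batch 3. The pairing was thus less distinct for batch 2.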

Additional observations from a re-analysis of the deposited data

How the results depend on the processing

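Under the alternatives tried (leaving out specimens aside), 102 values kept their direction and their side of the threshold, 19 changed sign, 2 newly passed and 3 no longer passed. The genotype difference over both sites (log2 0.69 to 1.08 with each specimen left out) passed in none of those fits and in inter-implantation tissue alone (1.76). That last difference lost its call with TMM factors (1.72), in batch 2 alone (1.26; 3.10 in batch 3 alone, which passed) and by exact permutation (1.77), and ran from 1.41 to 2.24 with each specimen left out, which removes its pair from the comparison as well. The site difference turned to -0.35 with batch as covariate, -0.43 in batch 2 and -0.10 in control specimens. The inter-implantation slope turned to 0.093 in control specimens and ran from -0.15 to 0.055 with each specimen left out. The implantation-site slope passed with cells of at least 500 genes (-0.29) and without the batch 1 cKO specimen of day 12 or 14 or the batch 2 control specimen of day 18, and ran from -0.40 to -0.27. The replicate block, which pairs specimens by batch, changed no call by edgeR: genotype 0.90, interaction -1.52, fine cluster 39 0.74 and fine cluster 40 1.18 (adjusted p of 0.0783, 0.243, 0.303 and 0.0848); exact permutation of log2 shares within the pairs gave an unadjusted p of 0.0234 against 0.0538 within strata. The causes were not tested.

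Cell measures, none of which passed, changed sign as follows. Between genotypes, the difference in mitochondrial percent turned to 0.0973 with at least 20 members per specimen and 0.0165 in fine cluster 39, and that in ribosomal percent to -1.70 with 20 members; with each specimen left out these ran from -0.0586 to 1.48 (ribosomal) and genes from -9.71 to 190.3. Between sites, without batch 1 and in batch 2 alone, UMIs turned to -2157 and -2249, genes to -239.6 and -226, mitochondrial percent to 0.832 and 0.664 (0.0413 with 20 members) and G2M percent to 0.614 and 3.54. S percent turned to -3.32 in batch 2. Fine cluster 39 percent turned to -3.50 without batch 1 and -1.61 with 20 members, and ran from -1.37 to 6.40 with each specimen left out. Specimens with 2 to 10 members limit every comparison at days 5 and 18.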
